A study of Mus musculus with 8 samples.

Results

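The genes described here carry an Mrpl (large subunit) or Mrps (small subunit) symbol followed by a number, the names given to proteins of the mitochondrial ribosome. Membership in the ribosome was taken from the symbol and was not checked protein by protein. Choosing every gene of the deposited table by that symbol pattern gave 77 of 11756 listed genes, 49 of them Mrpl and 28 Mrps. Of these, 76 are protein-coding and 1, Mrpl23-ps1, is annotated as a processed pseudogene. The annotation used here (GENCODE mouse release M21, GRCm38) holds 78 protein-coding symbols of this pattern.

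RNA was measured in 8 bulk libraries of CD11c positive cells from the bone marrow of C57BL/6 mice. CD11c, encoded by Itgax, is an integrin carried by dendritic cells and some macrophages, and cells bearing it were sorted by flow cytometry. On day 6 of culture, 4 cell samples were loaded for 24 h with acLDL, low density lipoprotein that has been acetylated so that cells internalize it through scavenger receptors, and 4 were unloaded controls. The series' design text gives acLDL as a stand-in for the atherosclerotic environment, so the comparison asks how these cells respond to lipid loading. Both groups had the same strain, sort and culture day, and no source used here gives the ages of the mice. The labels do not tie the 4 libraries of a group to different animals or cultures, and the p-values therefore reflect library-to-library spread that may be technical.

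The mitochondrial ribosome translates the messages encoded in mitochondrial DNA, all of them for subunits of the respiratory chain and ATP synthase. Its small subunit reads the message and its large subunit forms the peptide bond, as in other ribosomes. All of its proteins are encoded in the nucleus, made in the cytosol and imported, whereas its ribosomal RNAs come from mitochondrial DNA. Part of the proteins descend from those of the bacterial ribosome and part are specific to mitochondria, and the set is required in every cell that respires.

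Values are the authors' normalized signal per gene and library, without a unit, and are written below in the order of libraries 1 to 4 of each group. Library totals ran from 3917430 to 4385050, no value lay between 0 and 5, and a value listed at 0 may therefore be a low estimate. The number of reads behind a value was not recovered. Genes reaching 10 in at least 4 libraries were tested with limma on log2(value + 5), and a log2 fold change is the acLDL mean minus the control mean on that scale, which understates differences of low genes. Of the 77 genes, 75 passed this filter (48 large subunit, 27 small subunit). The large subunit gene Mrpl44 had 53.7, 0, 0 and 9.40 with acLDL and 0, 9.47, 43.4 and 20.2 in the controls. The small subunit gene Mrps28 had 16.4, 0, 0 and 0 against 0, 36.9, 28.1 and 8.14. Both overlapped between groups and were not tested.

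The libraries differed within a group. Between 662 and 2574 of the listed genes were at 0 in a library, with the highest numbers, 2178 and 2574, in acLDL libraries 2 and 3. Of the markers that define the sorted cells, all 9 dendritic cell and macrophage genes were listed, with a summed signal of 22826 to 62791 with acLDL and 40045 to 68419 in the controls. Lyz2 makes up most of that sum. Csf1r had 4087, 8639, 9634 and 5872 with acLDL and 5577, 3838, 3929 and 3899 in the controls, higher in acLDL libraries 2 to 4. It was the exception, since the other tested markers of this list had a lower mean log2 value with acLDL. Cd74 had 3596, 110, 240 and 793 against 830, 2463, 2831 and 2425. H2-Ab1 had 4080, 479, 41.3 and 1046 against 1931, 3733, 3320 and 3487. Lyz2 and Ccr7 were likewise below every control in acLDL libraries 2 to 4. Itgax itself lay between 0 and 189 in the acLDL libraries and between 81.5 and 195 in the controls, and Flt3, Zbtb46 and Adgre1 were also at 0 in some library. Granulocyte markers (6 of 7 listed) summed to 473 to 10803 with acLDL and 5087 to 12700 in the controls, with Ngp and Camp at 0 in some libraries. Erythroid markers (1 of 4 listed) summed to 54.1 to 190 and 164 to 1429, lymphocyte markers (2 of 5) to 29.4 to 76.8 and 16.6 to 31.4, and mast cell and basophil markers (2 of 3) to 8.63 to 37.5 and 12.4 to 70.5. None of 3 stromal markers was listed. The part of these differences in the results below was not tested. In bulk samples fewer cells of a type, less RNA per cell and differences between libraries cannot be told apart. Log2 fold changes of the tested markers of this list were smaller with the short-transcript covariate explained below. Itgax, Cd74, H2-Ab1 and Ccr7 went from -2.42, -1.86, -2.44 and -2.53 to -0.28, 0.06, -0.04 and 0.0029. Flt3, Adgre1, Lyz2 and Csf1r went from -0.61, -2.04, -1.15 and 0.65 to 0.11, 0.10, -0.29 and 0.09.

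The mitochondrial ribosomal protein genes did not pass the test in either direction. Of the 75 tested, 36 had a higher and 39 a lower mean log2 value with acLDL, which is 52.0% lower against 55.7% of all 10091 tested genes. The median of their log2 fold changes was -0.03 (all tested genes: -0.13), and single genes ran from -2.84 to 1.10 with quartiles of -1.21 and 0.48. By limma with Benjamini-Hochberg adjustment at 0.05, 0 of the 75 were called, and the share called among all tested genes was 0%. The smallest adjusted p of any gene was 0.298. At an unadjusted p under 0.05, 20 of the 75 passed (14 higher, 6 lower), or 26.7%, against 16.4% of all tested genes (7.42% higher, 8.93% lower). This share depended on single libraries. It was 6.67% (all tested genes: 6.95%) without acLDL library 2, 5.33% (7.46%) without library 3 and 58.7% (39.6%) without library 1.

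Leaving out 1 library ended this count of 0. Without acLDL library 1, limma called 27 of the 75 genes, 13 higher and 14 lower, when 21.7% of all tested genes were called (7.28% higher, 14.4% lower). The smallest adjusted p among the genes was then 0.0224, for Mrps31. With all 8 libraries kept but weighted by limma's estimate of how much each varies (array weights), 16 of the 75 were called, 9 higher and 7 lower, when 19.4% of all tested genes were called (6.49% higher, 12.9% lower). Of all 75 genes, 54 (72.0%) had their acLDL library 1 value within the range of the 4 controls, against 68.2% of all tested genes. The other 3 acLDL libraries all lay above every control for 21 genes (28.0%, against 14.0% of all tested genes) and all below every control for 14 (18.7%, against 18.9%).

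Large and small subunit genes did not differ beyond the spread between libraries. The median log2 fold change was -0.01 for the 48 large subunit genes (23 higher, 25 lower) and -0.18 for the 27 small subunit genes (13 higher, 14 lower), with ranges of -2.84 to 1.0 and -2.47 to 1.10. Averaging each gene's deviation from its own mean, the large subunit stood at 0.45, -0.57, -0.72 and -0.05 log2 units in the acLDL libraries and at -0.14, 0.39, 0.44 and 0.20 in the controls. The small subunit stood at 0.52, -0.48, -0.61 and -0.13 and at 0.04, 0.10, 0.48 and 0.07. The subunits therefore went up and down together from library to library, lowest in acLDL libraries 2 and 3 and high in acLDL library 1 and control library 3.

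Large minus small was -0.07, -0.09, -0.12 and 0.07 with acLDL and -0.18, 0.29, -0.04 and 0.13 in the controls, and the groups overlapped. The group means were -0.05 ± 0.08 (SD, n = 4) and 0.05 ± 0.20 (SD, n = 4), a difference of -0.10. Large subunit genes held 62.4% ± 0.653 of the summed signal of all 77 genes with acLDL and 63.5% ± 1.40 in the controls (SD, n = 4 each), also overlapping. Mrps18a and Mrps30 carry small subunit symbols, but their proteins sit in the large subunit of the mammalian mitochondrial ribosome. With both counted as large, the medians were again -0.01 for 50 genes and -0.18 for 25. Mrps18a had 43.7, 9.35, 0 and 6.83 with acLDL against 33.5, 16.8, 56.2 and 15.1, and Mrps30 had 432, 764, 785 and 670 against 465, 405, 623 and 494. Neither of the pair separated the groups.

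**Figure D1:**
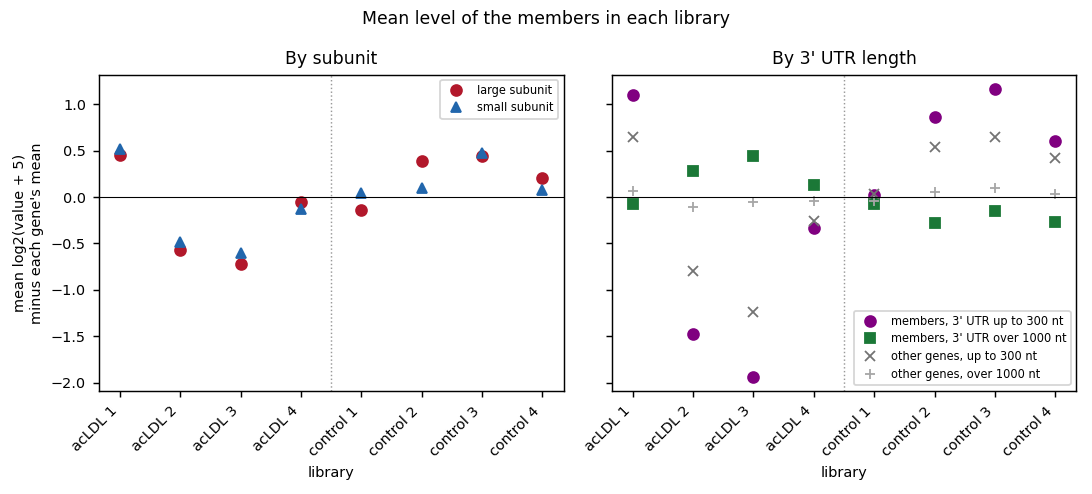
Mean log2(value + 5) deviation in each of the 8 libraries, for large and small subunit genes (left) and for genes with 3' UTRs up to 300 nt or over 1000 nt, with other tested genes beside them (right). Each point is 1 library: the subunits move together, while genes with short 3' UTRs drop to -1.48 and -1.94 in acLDL libraries 2 and 3 and those with long ones stand at 0.28 and 0.44.

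The genes divided by the length of their annotated 3' untranslated region (3' UTR), the stretch between the stop codon and the poly(A) tail. Of the 30 genes with a 3' UTR of up to 300 nt, 26 had a lower and 4 a higher mean with acLDL, and the median log2 fold change was -1.38. Of the 19 with over 300 and up to 1000 nt, 6 were lower and 13 higher, with a median of 0.34. Of the 25 with more than 1000 nt, 6 were lower and 19 higher, with a median of 0.49. These limits were chosen after the values were seen, so the classes are a description with no test. At the limit of 300 nt, Mrpl34 (287 nt) had a log2 fold change of -2.25, Mrps36 (304 nt) one of -0.18 and Mrps6 (305 nt) one of -1.40.

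Both subunits showed the same order. The class medians from short to long were -1.38, 0.34 and 0.42 for the large subunit (20, 11 and 16 genes) and -1.43, 0.35 and 0.58 for the small subunit (10, 8 and 9 genes). Across 74 genes the Spearman correlation of the log2 fold change with 3' UTR length was 0.66. It was 0.57 with the length of the whole transcript, 0.05 with the length of the coding sequence and -0.17 with the number of exons. The genes share the same 8 libraries, so this describes these libraries and carries no p. Other tested genes had class medians of -0.83, -0.34 and 0.03 (1731, 2589 and 4594 genes) and a correlation of 0.29 with 3' UTR length over 8914 genes, and whether this differs from the 74 was not tested.

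**Figure D2:**
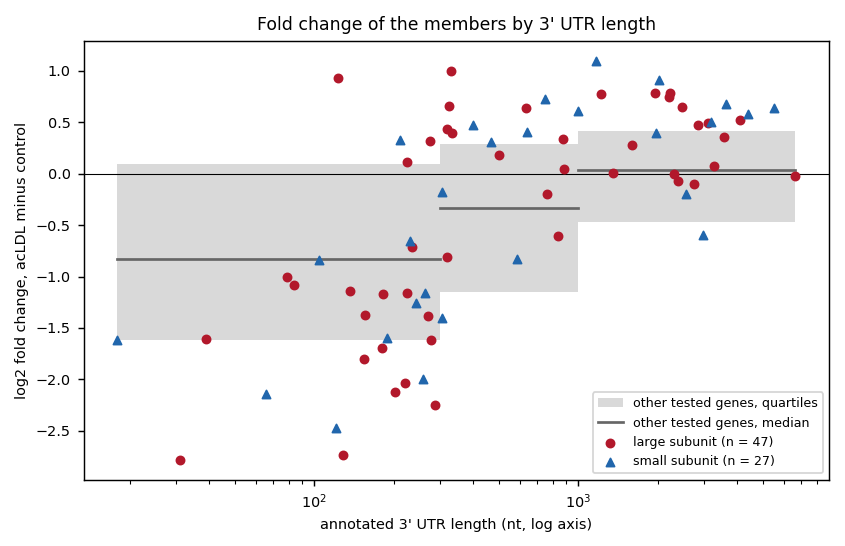
Log2 fold change (acLDL minus control) of 74 mitochondrial ribosomal protein genes against the annotated 3' UTR length in nucleotides on a log axis, with large subunit genes as circles and small subunit genes as triangles. Grey bands and lines give the quartiles and medians of the other tested genes in each length class: 26 of the 30 genes at or under 300 nt lie below 0, against 6 of the 25 over 1000 nt.

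Library by library, the 30 genes with short 3' UTRs averaged 1.10, -1.48, -1.94 and -0.33 with acLDL and 0.02, 0.86, 1.16 and 0.60 in the controls. The groups overlapped, since acLDL library 1 was second only to control library 3 and control library 1 stood near the mean of all. The 25 genes with long 3' UTRs averaged -0.08, 0.28, 0.44 and 0.13 with acLDL and -0.07, -0.28, -0.15 and -0.27 in the controls, and only acLDL library 1 fell among the controls. Of the 30 genes with short 3' UTRs, 17 were at 0 in acLDL library 2 or 3, against 2 of 19 in the middle class and 0 of 25 in the long class. Of all 75 tested genes, 21 (28.0%) were at 0 in some library, near the 28.2% of all tested genes in the series. Per library, 0, 16, 20 and 3 of the tested and untested genes were at 0 with acLDL, and 7, 0, 0 and 1 in the controls.

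Other genes with short 3' UTRs averaged 0.65, -0.79, -1.24 and -0.26 with acLDL and 0.04, 0.54, 0.65 and 0.42 in the controls. The libraries thus ranked nearly alike for short 3' UTRs inside and outside the ribosomal genes, in acLDL libraries 2 to 4 and control library 1 below the rest. With each library's mean over short transcripts (under 1000 nt) as a covariate in limma, the median log2 fold change of the 75 genes was 0.10, and again 0 genes were called. The class medians from short to long were then 0.04, 0.26 and 0.16, in place of -1.38, 0.34 and 0.49. Those of the other tested genes were -0.01, -0.01 and 0.03. The covariate was averaged over short genes of this other set, without the ribosomal genes, so these medians are no independent comparison. The covariate itself was 1.12, -1.36, -2.27 and -0.30 with acLDL and 0.06, 0.95, 1.07 and 0.73 in the controls. Since acLDL libraries 2 to 4 were below every control in it, this fit cannot tell group from library differences. Among the 25 genes named by the rule given with the processing below, 16 had a higher mean. Of these, 15 had a log2 fold change that was smaller by over 1.5 times, or turned in sign, with the covariate (all but Mrpl58). So had 8 of the 9 with a lower mean (all but Mrpl32). Mrpl18 and Mrps10, described below outside that rule, changed less, from 0.40 to 0.34 and from 0.47 to 0.36. Without acLDL library 1, the called genes were 12 lower and 1 higher in the short class, 1 lower and 5 higher in the middle class, and 0 lower and 7 higher in the long class. These are 43.3%, 31.6% and 28.0% of each class, against 34.5%, 25.9% and 15.4% of the other tested genes of the same classes, and the differences in share were not tested. The remaining called gene was Mrpl23-ps1, lower.

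**Figure D3:**
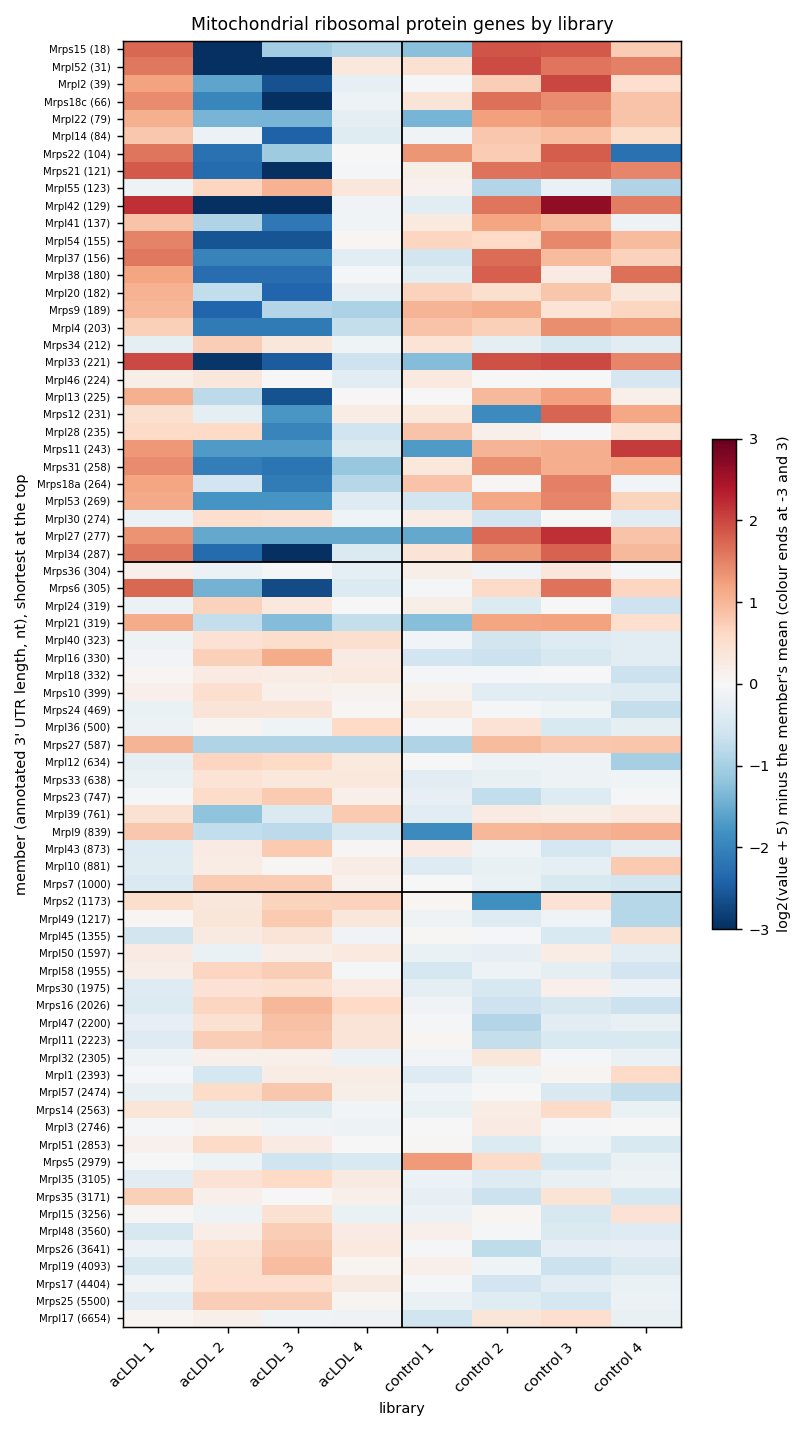
Heat map of 74 tested genes (rows, ordered by annotated 3' UTR length in nt, given in brackets) in the 8 libraries (columns), coloured by log2(value + 5) minus the gene's mean, with lines at 300 and 1000 nt. The blue block at the top in acLDL libraries 2 and 3 holds most of the genes with short 3' UTRs, and the pale red block below holds genes with higher values in acLDL libraries 2 to 4.

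Among large subunit genes, Mrpl16 had the smallest p. It encodes a protein with a bacterial counterpart (L16) and lies at chr19:11770391-11774960 on the plus strand. Its values were 763, 1328, 1726 and 950 with acLDL and 537, 511, 574 and 648 in the controls. Every acLDL library exceeded every control, by a log2 fold change of 1.0 (SE 0.26, limma adjusted p 0.298, unadjusted p 0.00427), or 0.55 with the short-transcript covariate. Mrpl49, whose protein is specific to mitochondria (chr19:6053622-6057785, minus strand), had 123, 155, 209 and 152 against 106, 89.2, 107 and 63.7, again without overlap (log2 fold change 0.77, SE 0.27). Mrpl58 is a peptidyl-tRNA hydrolase that became part of the large subunit and releases stalled chains. At chr11:115403752-115412674 on the plus strand, it had 95.2, 132, 141 and 78.9 against 55.1, 72.8, 66.5 and 52.9, with no overlap although acLDL library 4 was close to the highest control.

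Groups without overlap were found for 6 of the 75 genes (8.0%), all 6 with higher values with acLDL, against 5.64% of all tested genes (3.44% higher, 2.2% lower). Beside Mrpl16, Mrpl49 and Mrpl58 they were Mrps23 (below) and, named after their values were seen, Mrpl18 and Mrps10. Mrpl18 had 96.3, 110, 109 and 115 against 88.4, 88.4, 91.6 and 57.8, and Mrps10 had 66.0, 85.7, 66.5 and 64.3 against 63.5, 45.7, 46.5 and 43.5. In both, the nearest libraries of the 2 groups were almost equal.

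Mrpl40 (chr16:18872018-18876862, minus strand) had 212, 321, 344 and 332 against 224, 158, 180 and 189, so that only acLDL library 1 lay among the controls (log2 fold change 0.66). Mrpl55, which encodes a mitochondria-specific protein (chr11:59202486-59206134, plus strand), had 248, 431, 570 and 348 against 299, 149, 238 and 146. Its 3' UTR measures 123 nt, yet acLDL libraries 2 and 3 were its highest (log2 fold change 0.93). The others in the short class with a higher mean, named after their values were seen, were Mrps34, Mrpl46 and Mrpl30, with log2 fold changes of 0.33, 0.11 and 0.32.

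The largest differences of the large subunit were toward lower values. Mrpl4, the counterpart of bacterial L4 (chr9:21002738-21008839, plus strand), had 30.7, 0, 0 and 8.20 with acLDL and 34.1, 30.5, 51.8 and 48.0 in the controls. Acetylated LDL libraries 2, 3 and 4 were below every control and library 1 was level with the lowest, for a log2 fold change of -2.12 (SE 0.66, limma adjusted p 0.298), or -0.93 with the covariate. Mrpl52, the large subunit gene with the shortest transcript (chr14:54426909-54429756, plus strand, 3' UTR of 31 nt), had 192, 0, 0 and 77.5 against 86.5, 251, 197 and 185. Here acLDL library 1 stood among the controls and libraries 2 and 3 at 0 (log2 fold change -2.78, SE 1.18). The pseudogene Mrpl23-ps1 (chr2:74591330-74591909, minus strand) had 195, 0, 0 and 51.1 against 110, 213, 173 and 160 (log2 fold change -2.84). Its value is uncertain, because kallisto shares reads between near-identical transcripts and Mrpl23, its parent by name, is not among the 77 listed genes. Whether its value holds signal of Mrpl23 was not tested.

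The large subunit genes with the highest deposited values did not separate the groups, Mrpl16 excepted. Mrpl24 (chr3:87919506-87923672, plus strand) had 848, 1556, 1196 and 973 against 1083, 718, 965 and 617. Mrpl57, specific to mitochondria (chr14:57826234-57829296, plus strand), had 599, 1022, 1232 and 789 against 644, 696, 512 and 425. Acetylated LDL library 1 was the lowest of its group in both.

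Mrpl43, specific to mitochondria (chr19:45004829-45006442, minus strand), had 522, 818, 1189 and 706 against 812, 631, 474 and 572. Mrpl32, the counterpart of bacterial L32, is cut by the m-AAA protease before it enters the ribosome (chr13:14608184-14613165, minus strand). It had 646, 797, 792 and 629 against 674, 906, 686 and 619, and its groups had nearly equal means. Mrpl12 encodes the stalk protein that recruits translation factors (chr11:120484613-120489065, plus strand). It had 516, 966, 942 and 762 against 625, 561, 555 and 310, with only acLDL library 1 among the controls (log2 fold change 0.64, or 0.26 with the covariate). Mrpl17, the large subunit gene with the longest transcript (chr7:105803206-105811099, minus strand, 3' UTR of 6654 nt), had 104, 111, 90.1 and 88.3 against 63.4, 127, 143 and 84.1, and its acLDL values lay wholly inside the control range.

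Among small subunit genes, Mrps16 had the smallest p. It is the counterpart of bacterial S16 and is mutated in a human disorder of the respiratory chain (chr14:20389304-20393634, minus strand). Its values were 598, 1235, 1571 and 1194 with acLDL and 740, 517, 568 and 507 in the controls. Acetylated LDL libraries 2 to 4 were above all controls and library 1 was among them, for a log2 fold change of 0.91 (SE 0.30, limma adjusted p 0.298), or 0.36 with the covariate. Mrps17, the counterpart of bacterial S17 (chr5:129715497-129722556, plus strand), had 572, 866, 868 and 734 against 586, 412, 489 and 532, and here too acLDL library 1 alone was among the controls (log2 fold change 0.58). Mrps23, specific to mitochondria (chr11:88204388-88211507, plus strand), had 200, 306, 365 and 232 against 176, 122, 157 and 200. Its groups did not overlap, but the lowest acLDL library and the highest control differed only in the decimals (log2 fold change 0.72).

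Mrps26, also specific to mitochondria (chr2:130563742-130568695, plus strand), had 479, 718, 947 and 665 against 526, 314, 438 and 457 (log2 fold change 0.67). Mrps33 (chr6:39801804-39810988, minus strand) had 518, 794, 743 and 741 against 481, 515, 534 and 550 (log2 fold change 0.41). Mrps25, the small subunit gene with the longest transcript (chr6:92169525-92184033, minus strand, 3' UTR of 5500 nt), had 71.1, 153, 152 and 95.2 against 77.1, 68.2, 60.0 and 78.3 (log2 fold change 0.63). In these genes acLDL libraries 2 to 4 exceeded all controls and library 1 did not.

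Mrps31, whose protein is specific to mitochondria (chr8:22411361-22429665, plus strand), had 178, 11.3, 10.2 and 26.4 with acLDL and 81.6, 177, 142 and 151 in the controls. Mrps9, the counterpart of bacterial S9 (chr1:42851233-42905683, plus strand), had 191, 14.0, 48.3 and 46.0 against 193, 209, 125 and 149. In both, acLDL libraries 2 to 4 were below every control and library 1 was at the control level. The log2 fold changes were -2.0 (SE 0.75) and -1.60 (SE 0.62), each with a limma adjusted p of 0.298. Mrps21, the small subunit gene with the shortest transcript and the counterpart of bacterial S21 (chr3:95862634-95871519, minus strand, 3' UTR of 121 nt), had 384, 16.9, 0 and 99.5 against 117, 328, 341 and 292. Acetylated LDL library 1 was its highest and control library 1 its lowest control (log2 fold change -2.47, SE 1.18).

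**Figure D4:**
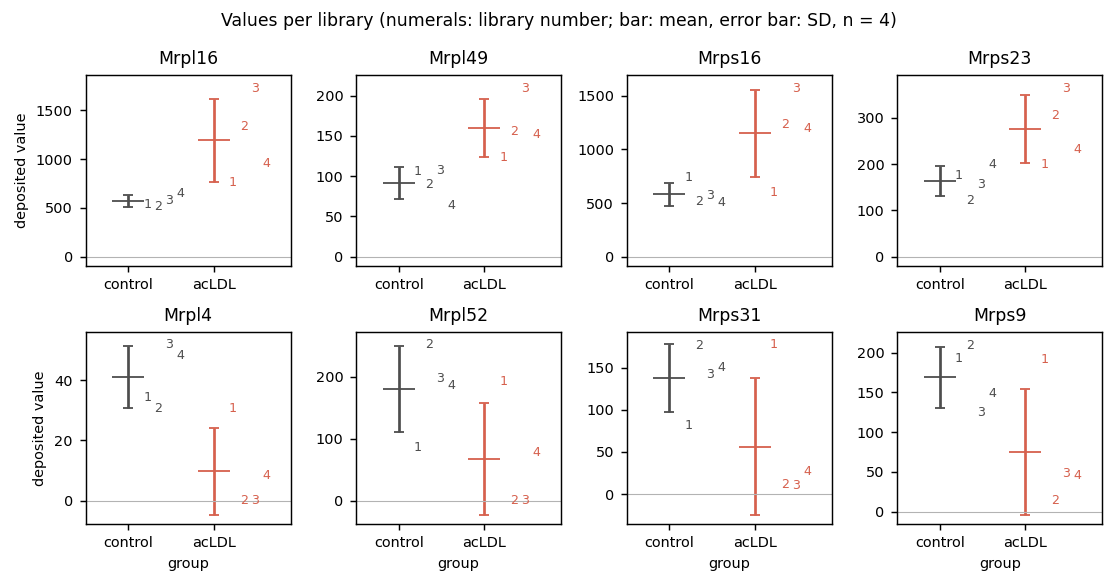
Deposited values of 4 genes with higher means (top) and 4 with lower means (bottom) with acLDL. Numerals mark the library number at its value, and bars the mean ± SD of 4 libraries: the acLDL values of Mrpl16 (763 to 1726) lie above all controls (511 to 648), while for Mrpl52, Mrps31 and Mrps9 numeral 1 stands at the level of the controls and numerals 2 to 4 below them.

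Summed over all 77 genes, the signal was 0.411%, 0.472%, 0.491% and 0.447% of the library total with acLDL and 0.383%, 0.369%, 0.402% and 0.366% in the controls. The groups did not overlap, with means of 0.455% ± 0.0347 and 0.380% ± 0.0166 (SD, n = 4 each). The sum is carried by the genes with high values, and its direction is the opposite of that of the mean log2 deviation. That mean was 0.48, -0.54, -0.68 and -0.08 with acLDL and -0.07, 0.28, 0.45 and 0.16 in the controls, and its groups overlapped.

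Compared with 2 other sets of nuclear genes whose products work beside them, the mitochondrial ribosomal protein genes had a median log2 fold change of -0.03 before any division by length. The 82 tested cytosolic ribosomal protein genes had one of -0.93 and the 80 tested nuclear genes of the respiratory chain one of -1.36. With the short-transcript covariate the 3 medians were 0.10, 0.12 and 0.05. Within 3' UTR classes the medians were -1.70, 0.49 and 0.35 (61, 10 and 9 genes) for the cytosolic ribosome and -1.71, 0.07 and 0.24 (57, 16 and 4 genes) for the respiratory chain, beside -1.38, 0.34 and 0.49 for the mitochondrial ribosome. Of the mitochondrial ribosomal protein genes 30 of 74 were in the short class, so that the sets differed in their share of it. No gene of either set was called, and the differences between sets were not tested.

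Other genes of mitochondrial translation were also not called, in lists chosen for their function. Of 5 ribosomal proteins without an Mrp symbol, 2 were higher and 3 lower. Gadd45gip1, which sits at the large subunit's exit, had 884, 1156, 1566 and 1392 with acLDL against 976, 859, 763 and 564. Chchd1, a small subunit protein, had 133, 0, 0 and 18.8 against 44.0, 159, 124 and 125. The groups overlapped for both, and both had a limma adjusted p of 0.298.

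Of 15 tested genes for assembly of the mitochondrial ribosome and modification of its RNA (19 listed), 10 were higher and 5 lower, with a median log2 fold change of 0.29. Trub2, a pseudouridine synthase, had 34.9, 134, 110 and 67.8 against 47.0, 21.2, 39.4 and 35.5, while Mpv17l2, an assembly factor, had 13.1, 0, 0 and 0 against 5.28, 32.2, 20.2 and 12.6. Of 13 translation factors and messenger RNA chaperones, 7 were higher and 6 lower (median 0.12). Oxa1l, which inserts the new chains into the inner membrane, had 327, 423, 443 and 422 against 300, 313, 253 and 311, without overlap, and the initiation factor Mtif3 had 360, 581, 573 and 448 against 384, 342, 341 and 387. Of 12 mitochondrial aminoacyl-tRNA synthetases and related enzymes, 9 were higher and 3 lower (median 0.22). The histidine enzyme Hars2 had 35.2, 83.7, 72.5 and 57.2 against 19.8, 27.6, 33.3 and 34.9, with the nearest libraries 35.2 and 34.9, and Gatb, a subunit of the glutamine amidotransferase, had 29.0, 52.9, 51.0 and 47.6 against 36.0, 16.8, 30.7 and 6.77.

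Of 7 genes for transcription and replication of mitochondrial DNA, 2 were higher and 5 lower (median -0.26). Ssbp1, the mitochondrial single-strand binding protein, had 187, 0, 0 and 27.3 against 39.3, 223, 251 and 265, and Polg2, the accessory subunit of the polymerase, had 44.3, 57.3, 27.7 and 50.8 against 47.0, 129, 67.9 and 66.1. Of 14 RNAs encoded in mitochondrial DNA, which the ribosome translates or is built from, 3 were higher and 11 lower (median -0.45). With the short-transcript covariate the median was -0.05, and the messages among them have annotated 3' UTRs of 0 or 3 nt. The message mt-Co3 had 15723, 5153, 3113 and 6015 against 9930, 9875, 14062 and 14717, and mt-Nd2 had 2829, 1912, 2447 and 2140 against 2156, 3707, 3949 and 3324. Their log2 fold changes were -0.93 and -0.47, or -0.06 and -0.26 with the covariate. The ribosomal RNAs, named after their values were seen, had log2 fold changes of 0.26 (mt-Rnr1) and -0.01 (mt-Rnr2). Of 7 nuclear regulators of mitochondrial genes, 4 were higher and 3 lower. Esrra, a nuclear receptor of mitochondrial gene programs, had 65.6, 40.9, 40.4 and 25.6 against 114, 92.7, 80.8 and 94.4, all below the controls (log2 fold change -1.11, limma adjusted p 0.298). Yy1 had 422, 449, 561 and 460 against 437, 297, 361 and 268, with overlap. The short-transcript covariate also changed the log2 fold changes of other genes named from these lists. Gadd45gip1, Chchd1, Trub2 and Mpv17l2 went from 0.65, -2.67, 1.06 and -1.56 to 0.36, -0.53, 0.34 and -0.68. Oxa1l, Mtif3, Hars2 and Gatb went from 0.45, 0.40, 0.95 and 0.99 to 0.28, 0.11, 0.62 and 0.64. Ssbp1, Polg2 and Yy1 went from -3.03, -0.67 and 0.49 to -0.56, -0.41 and 0.30, and Esrra from -1.11 to -0.98.

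Promoters were searched because NRF1, ETS factors such as GABPA and YY1 are known to bind at genes for mitochondrial proteins. The windows run from 250 bases before to 50 after the start site (RefSeq, GRCm38.p6), and 67 genes matched by symbol. The NRF1 motif, searched on both strands like the others, was in the window of 13 of the 67 (19.4%), against 12.0% of 7691 tested genes and 5.19% of all 27025 genes with a window. The ETS motif CCGGAAG was in 25 (37.3%), against 21.5% and 9.93%, and the YY1 motif AAGATGGCG in 8 (11.9%), against 3.74% and 1.64%. Counted by window, NRF1 was in 17.8% of their 73 windows and 4.6% of all 32851, ETS in 34.2% and 8.86%, and YY1 in 10.96% and 1.40%. Genes with higher and with lower means both held matches. NRF1 was in 5 of 32 higher and 7 of 34 lower genes, ETS in 10 and 15, and YY1 in 3 and 5. By subunit, NRF1 was in 10 of 42 large and 3 of 25 small subunit genes and ETS in 15 and 10. A match describes letters only, and none of these counts was tested.

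The next 4 windows, written 5′ to 3′ on the gene's strand with motif matches in capitals, were picked because they hold matches and because their genes differed in direction. Other genes described above, such as Mrpl16, Mrpl49, Mrpl55 and Mrps31, have no match in theirs. Mrpl52 (chr14:54426659-54426958, plus strand) and Mrps21 (chr3:95871465-95871764, minus strand) had lower means with acLDL. Mrpl57 (chr14:57825989-57826288, plus strand) and Mrps26 (chr2:130563507-130563806, plus strand) had higher means. ETS matches are in all 4 windows, in Mrpl52 at 2 places, and NRF1 matches in the other three, where those of Mrps26 overlap each other.
Mrpl52: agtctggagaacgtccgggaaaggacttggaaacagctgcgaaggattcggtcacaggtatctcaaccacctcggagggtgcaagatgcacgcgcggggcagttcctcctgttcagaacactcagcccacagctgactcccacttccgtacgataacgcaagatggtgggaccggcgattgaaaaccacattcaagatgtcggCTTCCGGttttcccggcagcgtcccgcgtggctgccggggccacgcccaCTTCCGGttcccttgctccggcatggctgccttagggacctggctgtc
Mrps21: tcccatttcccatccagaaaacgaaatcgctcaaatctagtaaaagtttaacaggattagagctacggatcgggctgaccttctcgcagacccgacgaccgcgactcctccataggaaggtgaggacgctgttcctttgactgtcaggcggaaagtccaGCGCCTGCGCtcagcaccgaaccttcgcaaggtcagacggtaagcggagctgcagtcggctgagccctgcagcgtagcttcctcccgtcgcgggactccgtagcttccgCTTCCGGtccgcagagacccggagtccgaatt
Mrpl57: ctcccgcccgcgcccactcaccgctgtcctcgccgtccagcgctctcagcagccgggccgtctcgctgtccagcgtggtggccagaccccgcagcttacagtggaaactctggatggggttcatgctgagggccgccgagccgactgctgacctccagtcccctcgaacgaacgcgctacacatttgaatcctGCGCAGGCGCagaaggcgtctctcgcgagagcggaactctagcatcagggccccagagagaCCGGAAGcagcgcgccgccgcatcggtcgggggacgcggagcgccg
Mrps26: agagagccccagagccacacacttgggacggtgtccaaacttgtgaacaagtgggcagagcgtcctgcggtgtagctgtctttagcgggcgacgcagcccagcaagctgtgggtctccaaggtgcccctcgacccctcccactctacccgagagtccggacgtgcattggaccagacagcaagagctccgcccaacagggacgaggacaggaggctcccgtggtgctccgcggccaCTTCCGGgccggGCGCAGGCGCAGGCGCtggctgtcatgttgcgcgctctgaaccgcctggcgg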

How the data were processed

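Poly(A) RNA of 8 libraries was sequenced. Per the labels' protocols, libraries came from the QuantSeq 3' V2 kit on RNeasy-purified RNA. The design text speaks of 5' quantification instead, and the kit's name was followed. The tools named, per the submitters' processing notes, are bcl2fastq 2.20 and kallisto, with the build mm10. The deposited values are a normalized signal per gene symbol, which the authors named raw counts although they are not whole numbers. How they were filtered, annotated and normalized is not given in the sources used here.

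Genes and gene lists were chosen with earlier results of these data known. Groups were taken from the labels, 4 libraries each. Limma 3.58.1 (R 4.3.3, Python 3.11.15) was run with group as the only term, variance trend and robust moderation, and p-values were adjusted over all 10091 tested genes. It was tested on simulated data with 200 changed genes. The simulated noise was independent between genes, so that test does not cover library differences shared by many genes, as seen here. Named per subunit were the 5 genes with the highest mean value, the 6 with the smallest p, the 3 with the smallest p among higher means, those with the longest and shortest transcripts, Mrps18a, Mrps30, Mrpl12 and the pseudogene, and 2 genes per list by p. Symbols matched the annotation for 77 of 77 genes. The 3' UTR was that of the protein-coding transcript with the longest coding sequence. Alternatives were other pseudocounts (1 and 20), filters (none, or at least 50), size factors, quantile normalization, array weights, a short-transcript covariate, a replicate block and left-out libraries.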

Additional observations from a re-analysis of the deposited data

Results flagged for a closer look

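In 58 groups of 4 libraries (named genes and subunit means), Dixon's gap test at its 95% level marked 4 libraries as far from the rest of their group, where chance marks about 1 in 20 groups. Mrpl40 in acLDL library 1 was at 212, with the other acLDL libraries at 321 to 344. Mrps33 in the same library was at 518, with the others at 741 to 794. Mrps21 in control library 1 was at 117, with the others at 292 to 341. The mean log2 deviation of the small subunit genes in control library 3 was 0.48, with the other controls at 0.04 to 0.10.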

How the results depend on the processing

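The count of called genes depended on the setting. Array weights gave 1957 genes (16 of the 75) and quantile normalization 1 (0 of the 75). Leaving out 1 library gave 0 to 2190 genes and 0 to 27 of the 75, and the calls came only without acLDL library 1. Same-numbered libraries did not deviate alike from their group means (correlations -0.55, -0.21, -0.28 and 0.03). A pairing by animal or culture could lie beneath the large differences between libraries, so these values do not settle it. With the replicate block, 0 genes were called, large minus small was -0.10, and 9 of the 75 had an unadjusted p under 0.05 (12.0%, against 7.23% of all tested genes), where it was 20 (26.7%, against 16.4%) without the block. That share was 1.33% (all tested genes: 4.97%) with the short-transcript covariate and 2.67% (5.33%) with covariate and block. Without acLDL libraries 2 and 3 it was 1.33% (3.02%). With a control library left out it was 9.33% to 34.7% (8.23% to 21.2%). Large minus small ran from -0.18 to -0.02 with 1 library left out.

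Directions turned for 4 of the 25 named genes. Mrpl17 (-0.03) was 0.22 with quantile normalization, 0.14 with the short-transcript covariate, 0.38 with covariate and replicate block, and -0.23 to 0.14 with 1 library left out. Mrpl32, with nearly equal group means, was -0.072 to 0.11 with 1 library left out. Mrpl43 (0.34) was -0.16 with the covariate, -0.23 with covariate and block and -0.0082 without acLDL libraries 2 and 3. Mrps21 (-2.47) was 0.10 and 0.0059 with the covariate, without and with the block. The cause was not tested. Quantile normalization moved the median of all tested genes to 0.15 and that of the 75 to 0.12, and a filter at 50 left 59 of them with a median of 0.28. Depth could not be weighed, since the values are not counts.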
